A study of Mus musculus with 5 samples.

Results

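10 chemokine genes, written here with the symbols of the files, were followed through LLC tumors of 5 groups: CCL2, CCL5, CCL7, CCL8, CXCL1, CXCL2, CXCL9, CXCL10, CXCL12 and CXCL16. They were taken by symbol, and all 10 were found among the 13979 symbols shared by the 3 tables from which the 5 libraries were read. LLC (Lewis lung carcinoma) is a mouse lung tumor cell line. The groups, with 1 library each, were Control, BMN (BMN673, a PARP inhibitor), PAZA (a polymer that carries azacytidine, an inhibitor of DNA methyltransferases), and BMN carried by PAZA at a low or at a high dose, which the labels give for BMN and the study's text gives for BMN and azacytidine together. The labels describe cultured LLC cells treated for 72 h, whereas the study's methods describe tumor tissue taken after the last treatment of tumor-bearing mice. The library labelled PAZA is the carrier without BMN, and no second tumor of any group was analysed here.

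Chemokines are small secreted proteins that bind to matrix sugars and set up gradients along which leukocytes migrate. In tumors they come from cancer cells, macrophages, fibroblasts and endothelium. CCL2 and CCL7 draw monocytes, CXCL1 and CXCL2 draw neutrophils, CCL5 draws T cells and macrophages, and CXCL9 and CXCL10 are induced by interferons and draw T cells and NK cells through CXCR3. CXCL12 is a stromal chemokine that retains cells through CXCR4, and CXCL16 is made as a membrane protein whose receptor is CXCR6.

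The 10 genes lie on 3 chromosomes of GRCm38. On chromosome 11 the annotation places CXCL16 at chr11:70453983-70459984, CCL2 at chr11:82035571-82037453, CCL7 at chr11:82045712-82047525, CCL8 at chr11:82115185-82116799 and CCL5 at chr11:83525778-83530518. On chromosome 5 it places CXCL1 at chr5:90891241-90893115, CXCL2 at chr5:90903871-90905938, CXCL9 at chr5:92321347-92328079 and CXCL10 at chr5:92346638-92348889. CXCL12 lies alone at chr6:117168535-117181367. All 10 are protein-coding genes, and each interval runs over the whole gene, its exons and introns together.

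Promoter windows of 300 bases, from 250 bases before to 50 bases after the gene start (RefSeq, GRCm38.p6), were read for 6 of the 10 genes: CCL8, CXCL1, CXCL2, CXCL9, CXCL10 and CXCL12. Each window was searched on both strands for the kappa B consensus, the site that NF-kappa B binds, for GAAANNGAAA, the core of the interferon-stimulated response element, and for TTCNNNGAA, the gamma-activated site. These letters occur in 8.46%, 3.44% and 8.30% of all 32851 windows of the same length. Matches were found in the windows of CXCL1, CXCL2 and CXCL10, and the stretches that hold them are printed 5′ to 3′ on the strand of the gene, with the matched letters in capitals. They are shown because CXCL1 and CXCL2 carry the same 11 letters, while CXCL10 carries kappa B matches and the interferon core together.
CXCL1 (chr5:90891162-90891196, plus strand, 83 to 49 bases before the start): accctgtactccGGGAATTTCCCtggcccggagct
CXCL2 (chr5:90903790-90903824, plus strand, 109 to 75 bases before the start): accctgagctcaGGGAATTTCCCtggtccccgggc
CXCL10 (chr5:92348971-92349114, minus strand, 225 to 82 bases before the start): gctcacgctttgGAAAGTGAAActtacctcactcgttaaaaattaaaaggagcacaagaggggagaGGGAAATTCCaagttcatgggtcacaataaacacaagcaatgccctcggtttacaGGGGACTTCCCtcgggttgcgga
In CXCL1 and CXCL2 the capitals are 2 overlapping kappa B matches, 1 on each strand. In CXCL10 the first capitals are the interferon core, and the other two stretches hold 3 kappa B matches, of which 2 overlap. The windows of CCL8, CXCL9 and CXCL12 held none of the 3 motifs, and TTCNNNGAA was in none of the 6 windows. The number of CG dinucleotides, whose cytosine DNA methyltransferases methylate, was 2 in CCL8, 4 in CXCL9, 10 in CXCL1, 10 in CXCL10, 11 in CXCL2 and 20 in CXCL12, against a median of 7 over all windows. A match describes the letters only, and neither binding nor methylation was measured.

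The deposited tables do not state a unit, and the form of the values is that of FPKM, which divides fragments by gene length and library size. For levels across libraries each column was scaled to a sum of 1000000 over the shared symbols, and such a level is called a scaled value. Differences are log2 fold changes of the scaled value + 1, and a gene is called when it is at least 2-fold higher or lower on that scale. As each group is 1 library, no replicate error exists, no test was possible and no difference can be set against the spread between tumors. Read depth cannot be known from these values. What 1 fragment was worth in one column of a table relative to the other ranged from 0.711 to 0.988, except in the table of both doses, where it was 3.30. In bulk RNA, fewer cells of a type and less RNA per cell cannot be told apart. Leukocyte markers were present in all 5 libraries: the scaled value of PTPRC (CD45) was 27.0 to 46.0, that of ITGB2 was 24.3 to 60.9 and that of CD68 was 45.8 to 64.7. COL1A1 of fibroblasts was 14.5 to 54.7, PECAM1 of endothelium was 15.2 to 25.8, and the epithelial KRT8 was 115 to 174, whereas KRT18 and EPCAM were at most 3.49 and 3.30. The lung marker SFTPC was not among the shared symbols.

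Several chemokine values disagreed between tables, which bears on most of what follows. PAZA and BMN/PAZA low dose each occur in more than 1 table, and the values of 1 library should differ between tables by 1 constant. Among the 10 genes, CCL8, CXCL1, CXCL2, CXCL12 and CXCL16 (5 genes) stayed within 0.5% of every constant. The other 5, CCL2, CCL5, CCL7, CXCL9 and CXCL10, did not, and they are among 435 symbols off a constant. For PAZA and BMN/PAZA low dose, 1.45% to 2.44% of the symbols compared were off in each pair of tables. BMN and BMN/PAZA high dose values of all 10 genes were the same in both tables that hold them. Control occurs only in the table with PAZA, so no Control value could be compared between tables. Levels were taken from the table of Control and PAZA, from the table of BMN and BMN/PAZA high dose, and, for BMN/PAZA low dose, from the table of both doses.

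**Figure D1:**
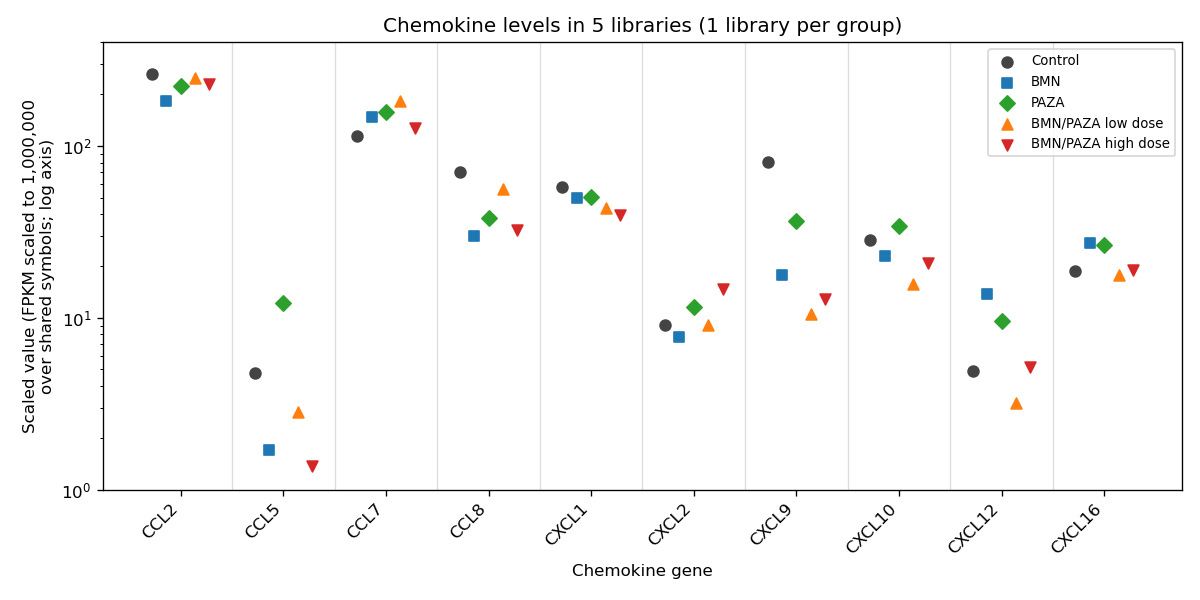
Scaled values (log axis, FPKM scaled to 1000000 over the shared symbols) of the 10 chemokine genes, with 1 point per library and 1 library per group. CCL2 and CCL7 are the highest in every library, CXCL9 runs from 80.5 in Control down to 10.5 in BMN/PAZA low dose, and CCL5 and CXCL12 have the lowest means.

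The monocyte chemokines CCL2 and CCL7 were the most abundant of the 10 in every library. CCL2, the main ligand of CCR2, had scaled values of 264 in Control, 182 in BMN, 224 in PAZA, 248 in BMN/PAZA low dose and 228 in BMN/PAZA high dose. Its highest level was 1.45 times its lowest, and it lay at or above 95.5% of all symbols in each library. CCL7, another CCR2 ligand, was lowest in Control and higher in each treated library. It was measured at 114 in Control, 148 in BMN, 158 in PAZA, 182 in BMN/PAZA low dose and 127 in BMN/PAZA high dose. Neither gene reached 2-fold in any of the 8 comparisons with these values. Both are off a constant between tables, and with the low dose values of the tables with PAZA and with BMN, CCL7 in BMN/PAZA low dose was 1.09 and 1.65 above Control on the log2 scale. The low dose level of CCL2 was then 347 and 488, above Control.

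CCL8 was lower in every treated library than in Control. The scaled value of CCL8 was 70.8 in Control, 29.9 in BMN, 37.9 in PAZA, 56.5 in BMN/PAZA low dose and 32.6 in BMN/PAZA high dose. The log2 fold change against Control was -1.22 in BMN, -1.10 in BMN/PAZA high dose, -0.89 in PAZA and -0.32 in BMN/PAZA low dose. BMN/PAZA low dose was thus the treated library nearest to Control. The call for BMN/PAZA high dose was lost at -0.99 when columns were scaled over all of their rows, and at -0.86 with median-ratio scaling. CCL8 is one of the genes whose values held between tables, but its Control value could not be compared in this way.

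CCL5 (RANTES) was a low-level gene whose highest level was 8.86 times its lowest. Its scaled values were 4.74 in Control, 1.69 in BMN, 12.1 in PAZA, 2.84 in BMN/PAZA low dose and 1.37 in BMN/PAZA high dose. PAZA was the highest library, and the 3 libraries with BMN were below Control. The low dose level was 4.20 with the value of the table with PAZA and 9.78 with that of the table with BMN, and the latter is above Control by 0.91 on the log2 scale. The PAZA value of CCL5 stood on the constant between both tables that hold it, at 6.99 and 7.08 FPKM. In the table with Control it was deposited with 7 significant digits. It was one of 27 among 20236 PAZA values of that table with more than 6 digits, and all 27 had at most 6 after division by 1.5. As deposited, PAZA over Control was a ratio of 2.69. After the division it was 1.80, and the log2 fold change dropped from 1.19 to 0.66, within 2-fold. The highest level was then 5.91 times the lowest, less than the 7.70 of CXCL9.

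The neutrophil chemokines differed in the order of the libraries. CXCL1, a ligand of CXCR2, was highest in Control, with scaled values of 57.8 in Control, 50.04 in BMN, 50.5 in PAZA, 43.7 in BMN/PAZA low dose and 39.4 in BMN/PAZA high dose. CXCL2, which acts on the same receptor, was highest in BMN/PAZA high dose. Scaled values of CXCL2 were 9.13 in Control, 7.73 in BMN, 11.6 in PAZA, 9.10 in BMN/PAZA low dose and 14.7 in BMN/PAZA high dose. Neither gene was called in any comparison. CXCL2 in BMN/PAZA high dose against BMN was 0.85 on the log2 scale, and passed 2-fold at 1.17 with median-ratio scaling and at 1.05 when 3 abundant RNAs were left out of the scaling. The summed scaled value of 6 neutrophil markers was 76.1 in Control, 68.6 in BMN, 128 in PAZA, 127 in BMN/PAZA low dose and 236 in BMN/PAZA high dose. S100A8 and S100A9 made up most of this sum, and both, like CXCL2, were highest in BMN/PAZA high dose and lowest in BMN. Others of the 6 did not share this order, as CXCR2 was highest in BMN (5.00), and CSF3R (2.64) and MMP8 (3.18) were lowest in BMN/PAZA high dose. The part of neutrophils in the CXCL2 levels was not tested.

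CXCL9, an interferon gamma target that draws CXCR3-bearing T cells, had the largest difference from Control of the 10. Its scaled values were 80.5 in Control, 17.6 in BMN, 36.8 in PAZA, 10.5 in BMN/PAZA low dose and 12.9 in BMN/PAZA high dose. Every treated library was lower than Control and past 2-fold, with log2 fold changes of -2.13 in BMN, -1.11 in PAZA, -2.83 in BMN/PAZA low dose and -2.55 in BMN/PAZA high dose. At most 2.5% of all symbols lay as low as CXCL9 in each of these 4 comparisons, which share the Control library. CXCL9 values of PAZA and of BMN/PAZA low dose were off a constant between tables, and the call of BMN/PAZA low dose against Control depends on the table. With the low dose value of the table with PAZA the level was 57.0 and the log2 fold change -0.49, within 2-fold. With that of the table with BMN they were 20.6 and -1.92, and the PAZA value of the table with the low dose gave -2.89 for PAZA against Control.

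CXCL10, the other CXCR3 ligand, differed less, with scaled values of 28.3 in Control, 22.9 in BMN, 34.3 in PAZA, 15.8 in BMN/PAZA low dose and 20.7 in BMN/PAZA high dose. It was not called against Control in any treated library. BMN/PAZA low dose against PAZA was -1.07, and -0.95 when columns were scaled over all rows. The low dose level was 23.3 with the value of the table with PAZA and 54.3 with that of the table with BMN, and the latter was above every other library. The order of CXCL10 (PAZA, Control, BMN, high dose, low dose) differed from that of CXCL9 in that PAZA stood above Control.

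T cell markers differed between the same libraries. The summed scaled value of 7 T cell markers was 22.1 in Control, 11.9 in BMN, 25.1 in PAZA, 10.0 in BMN/PAZA low dose and 4.04 in BMN/PAZA high dose, and CD3E was listed at 0 in BMN/PAZA high dose and was 1.65 to 2.32 elsewhere. TRAC carried much of the low dose difference, at 8.53 in Control, 4.12 in BMN and 0.34 in BMN/PAZA low dose. CD3E (2.22), CD3G (2.43) and TRBC2 (4.45) in BMN/PAZA low dose were above BMN (1.65, 1.53 and 2.76). The remaining T cell markers were lower there than in BMN. The sum of 6 NK cell markers was 52.0 in Control and 42.6 in BMN. It was 27.9 in PAZA, 28.3 in BMN/PAZA low dose and 28.2 in BMN/PAZA high dose, so that PAZA was the lowest by a small margin only. EOMES was the only one of the 6 genes that was itself lowest in PAZA, so this rank rests on that gene. Among those 6 genes, 2 were off a constant between tables. Control and PAZA had the highest T cell sums, and also the highest levels of CXCL9, CXCL10 and CCL5 with the values used here, but not with the low dose values of the table with BMN for CXCL10 and CCL5 or of the table with PAZA for CXCL9, nor with the PAZA value of CXCL9 in the table with the low dose (10.03, below every other library). The part of T cells and NK cells in these levels was not tested.

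CXCL12 was highest in BMN and PAZA. It stood at scaled values of 4.88 in Control, 13.7 in BMN, 9.60 in PAZA, 3.17 in BMN/PAZA low dose and 5.16 in BMN/PAZA high dose. BMN was 1.32 above Control on the log2 scale, whereas PAZA was 0.85 above. The summed scaled value of 6 fibroblast markers, also highest in BMN and then in PAZA, was 313 in Control, 817 in BMN, 534 in PAZA, 318 in BMN/PAZA low dose and 350 in BMN/PAZA high dose, and all 6 were at least 2-fold higher in BMN than in Control. The part of fibroblasts in the CXCL12 levels was not tested. Skeletal muscle markers, 5 genes, also differed, from a sum of 7.88 in Control to 165 in BMN and 184 in BMN/PAZA high dose.

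CXCL16 followed the same order of libraries as CXCL12 in a narrower range. Its scaled values were 18.6 in Control, 27.3 in BMN, 26.6 in PAZA, 17.7 in BMN/PAZA low dose and 19.0 in BMN/PAZA high dose. No comparison reached 2-fold for CXCL16. Both genes held their values between tables.

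**Figure D2:**
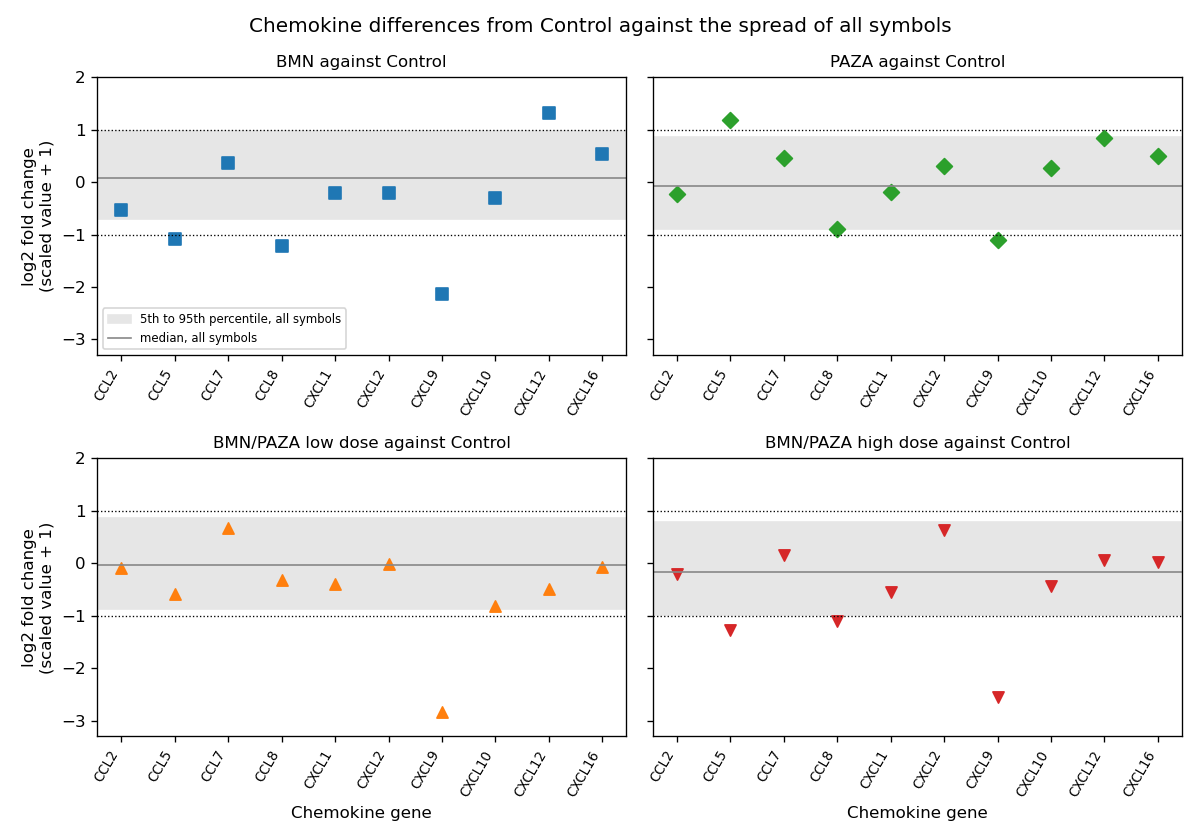
Log2 fold changes of the scaled value + 1 of the 10 genes against Control, in 1 panel per treated library. The grey band runs from the 5th to the 95th percentile of all 13979 symbols, the grey line is their median, and dotted lines mark 2-fold. CXCL9 lies below the band in all 4 panels, and CXCL12 lies above it in BMN.

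Calls were next counted over the set against Control. In BMN 1 gene was higher (CXCL12) and 3 were lower (CCL5, CCL8, CXCL9), where 4.57% of all symbols were called higher and 2.21% lower. In PAZA 1 was higher (CCL5, not after its division by 1.5) and 1 lower (CXCL9), against 3.47% and 3.53% of all symbols. In BMN/PAZA low dose 0 were higher and 1 lower (CXCL9), against 3.61% and 3.5%. With the low dose values of the table with PAZA the 1 call was CCL7, higher, and with those of the table with BMN there were 2, CCL7 higher and CXCL9 lower. In BMN/PAZA high dose 0 were higher and 3 lower (CCL5, CCL8, CXCL9), against 3.13% and 4.84%. The median log2 fold change of the 10 genes was -0.25 in BMN, 0.29 in PAZA, -0.36 in BMN/PAZA low dose and -0.32 in BMN/PAZA high dose, beside medians over all symbols of 0.08, -0.07, -0.03 and -0.16. These 4 comparisons share the Control library. The summed level of the 10 genes was 500.0 to 652 of 1000000, mostly from CCL2 and CCL7, and the 589 of BMN/PAZA low dose became 804 with the values of the table with PAZA and 1059 with those of the table with BMN.

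Between the treated libraries, the low dose formulation was compared with each of its components and with the high dose. In BMN/PAZA low dose against BMN 0 genes were higher and 1 was lower (CXCL12, -1.81), beside 3.2% and 5.82% of all symbols. Against PAZA 0 were higher and 4 were lower (CCL5 -1.77, CXCL9 -1.72, CXCL12 -1.35, CXCL10 -1.07), beside 2.43% and 2.76%. Of these 4 calls that of CXCL12 held with every source table, while CXCL9 turned to 2.28 with both columns as deposited in the table of these groups and CXCL10 to 0.65 with the low dose value of the table with BMN. In the latter setting 2 genes were higher (CCL2 1.12, CCL7 1.18) and 1 lower. Against BMN/PAZA high dose 0 were called in either direction, beside 3.38% and 2.34%, and the values ran from 0.77 for CCL8 to -0.64 for CXCL2. In BMN/PAZA high dose against BMN 0 were higher and 1 was lower (CXCL12, -1.25), beside 2.27% and 6.72%. With median-ratio scaling the CXCL12 call in this last comparison was lost at -0.94 and CXCL2 was called higher at 1.17. The medians over all symbols in these 4 comparisons were -0.13, 0.03, 0.13 and -0.26, and the medians of the 10 genes were 0.01, -0.44, 0.01 and -0.20. With median-ratio scaling the medians over all symbols lay between 0.00 and 0.02 in every comparison. That scaling moves all genes of a comparison together, and in BMN/PAZA high dose against BMN it turned the sign of CXCL1 (-0.34 to 0.01), CCL7 (-0.22 to 0.13), CCL5 (-0.18 to 0.03) and CXCL10 (-0.14 to 0.20), while CCL2 (0.33), CCL8 (0.12) and CXCL2 (0.85) were above BMN with both scalings.

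**Figure D3:**
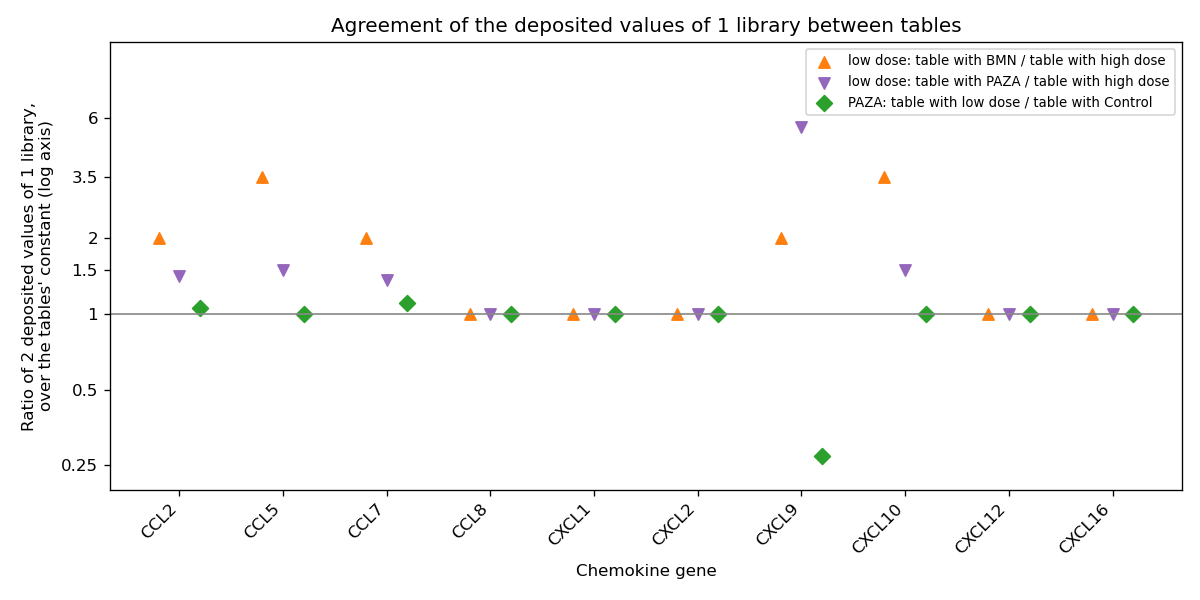
Ratio of 2 deposited values of 1 library taken from 2 tables, divided by the constant between those tables (log axis), for each of the 10 genes. The 5 genes that held their values sit at 1 in all 3 series, while CCL2, CCL7 and CXCL9 sit at 2 and CCL5 and CXCL10 at 3.5 in the table with BMN.

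The disagreements between tables took simple multiples. In the table of BMN and BMN/PAZA low dose, the low dose values of CCL2, CCL7 and CXCL9 were 2 times those that the table of both doses gives for the same library after the constant, and those of CCL5 and CXCL10 were 3.5 times. Among the 378 symbols off the constant between these tables, 170 stood at 2, 24 at 1.75 and 10 at 3.5, the multiples shared by at least 10 symbols. As deposited, CXCL9 in that column was 12.2 FPKM with 7 digits, and CXCL10 was 32.2 FPKM with 7 digits. Division by 2 and by 3.5 brings them to 6 digits.

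These multiples set what the table of BMN and BMN/PAZA low dose shows for the chemokines. As deposited, the FPKM ratio of BMN/PAZA low dose over BMN was 6.60 for CCL5, 3.07 for CCL2, 2.77 for CCL7, 2.71 for CXCL10 and 1.33 for CXCL9. With the low dose values of the table of both doses put on the same scale, the ratios were 1.89, 1.53, 1.39, 0.773 and 0.667. CXCL10 and CXCL9 thus passed from above 1 to below 1. With the low dose values of the table with PAZA they stayed above 1, at 1.16 and 3.68. The 5 genes whose values held gave the same ratio with each source: 2.12 for CCL8, 1.32 for CXCL2, 0.980 for CXCL1, 0.729 for CXCL16 and 0.260 for CXCL12. In all, 7 of the 10 ratios were above 1 as deposited, with a median of 1.73. With the values of the table with PAZA 7 were above 1, with a median of 1.60. With those of the table of both doses 5 were, with a median of 1.15. These ratios are of unscaled columns, which sum to 559054 in BMN and 662599 in BMN/PAZA low dose. No share of all symbols was computed for them. With the scaled levels 5 genes were above BMN and 5 below, at a median log2 fold change of 0.01, beside -0.13 over all symbols. On the log2 scale 5 genes were called higher and 1 lower as deposited. After scaling, which ended the call of CCL8, 4 were higher and 1 lower with the same source values, against 0 and 1 with the low dose values of the table of both doses.

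In the table that pairs PAZA with BMN/PAZA low dose, the values of 3 chemokines stood in exchanged places. For CCL2, CCL7 and CXCL9 the PAZA value equalled the BMN/PAZA low dose value that the table of both doses gives, at a ratio of 1 within the tolerance, and the low dose value was 1.5 times the PAZA value that the table with Control gives. CXCL9 was deposited as 5.84 FPKM in PAZA and 32.2 FPKM in BMN/PAZA low dose, whereas the other tables give 21.5 and 5.84 on the same scale. The ratio of BMN/PAZA low dose over PAZA was therefore 5.52 as deposited and 0.272 from the other tables. For CCL2 the ratio was 1.42 against 1.06, and for CCL7 it was 1.36 against 1.10. The low dose values of CCL5 and CXCL10 were 1.5 times those of the table of both doses in this table, so that their ratios to PAZA were 0.336 against 0.224 and 0.659 against 0.439. Among 12952 symbols compared, 196 had a PAZA value equal to the low dose value of the other tables and not to its own, and 166 of these had a low dose value 1.5 times the PAZA value. CXCL11, XCL1, STAT2, STAT3, IRF1, IRF9, TNFAIP3 and HIF1A are among those 166, named here after their values were seen.

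**Figure D4:**
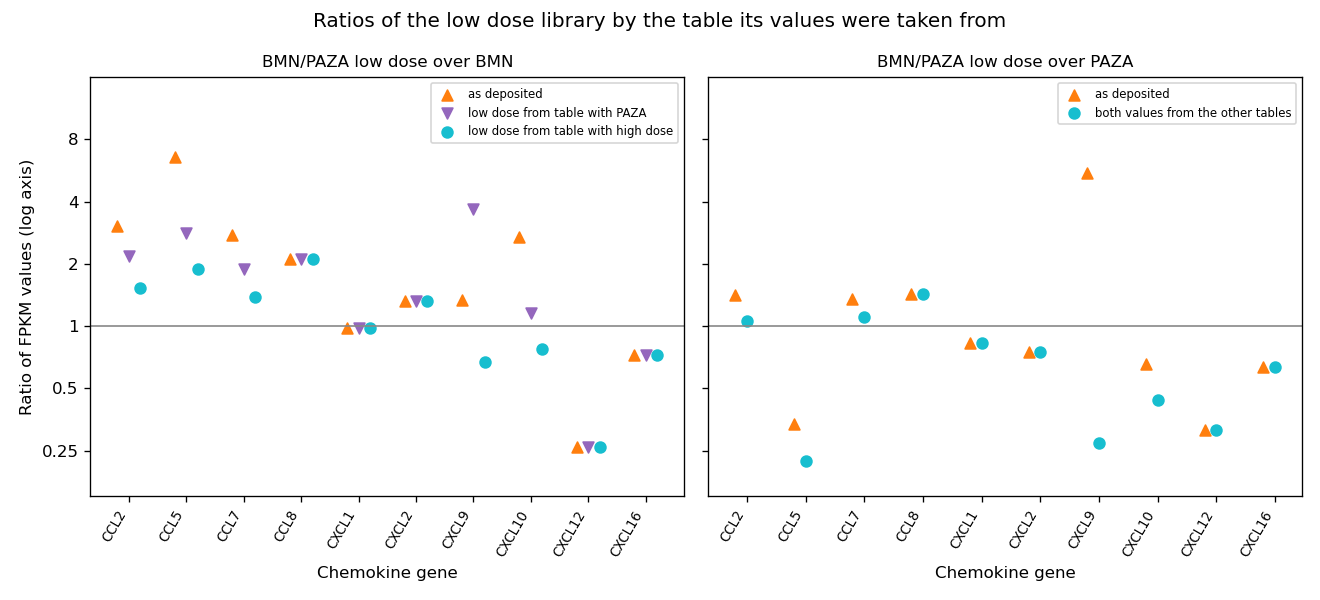
FPKM ratios (log axis) of BMN/PAZA low dose over BMN and over PAZA for the 10 genes, by the table that the low dose values were taken from. CXCL9 over PAZA is 5.52 as deposited and 0.272 from the other tables, and the 5 genes on every constant have points at the same height.

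In the table of both doses the whole low dose column carried 1 factor. Of its 15480 values above 0, 13774 had more than 6 significant digits, and 2 did after division by 3.6. As deposited, all 10 chemokines were higher in BMN/PAZA low dose than in BMN/PAZA high dose, with a median ratio of 3.27, and 8 were called. After division by 3.6, 4 were higher and 6 lower, with a median of 0.909. The ratios were then 1.87 for CCL5, 1.30 for CCL7, 0.979 for CCL2, 0.733 for CXCL9 and 0.688 for CXCL10. All of these ratios are of unscaled columns, and no share of all symbols was computed for them. With scaled values 5 genes were above the high dose and 5 below. Their median log2 fold change was 0.01, beside 0.13 over all symbols. Scaling of the column removes this factor from the levels above. How these multiples entered the tables was not tested.

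Among 20 other chemokine ligands the low dose and PAZA libraries had the highest sums, which reached 761 and 796 against 489 in Control. Against Control 5 were called higher in BMN, 5 in PAZA, 5 in BMN/PAZA low dose and 3 in BMN/PAZA high dose, while 0, 1, 1 and 1 were called lower. Over all symbols 4.57%, 3.47%, 3.61% and 3.13% were called higher in these comparisons and 2.21%, 3.53%, 3.5% and 4.84% lower. Medians of the list were 0.39, 0.71, 0.39 and 0.30. CXCL14, a ligand of epithelium and stroma, had scaled values of 1.37 in Control, 6.31 in BMN, 9.45 in PAZA, 6.21 in BMN/PAZA low dose and 3.39 in BMN/PAZA high dose. CCL24 (eotaxin-2) was listed at 0 in Control and was 1.21 to 3.29 in the treated libraries. CXCL5, a neutrophil chemokine, was 11.1 in BMN and 1.08 to 2.91 elsewhere. CCL27A, a skin chemokine, was 9.93 in Control and 12.9 in BMN but 1.03 to 1.86 in the other libraries, and the summed scaled value of 4 epidermis markers was 67.2 in Control and 201 in BMN but 1.84 to 12.4 in the others. The part of skin in the CCL27A levels was not tested. Of the 20 ligands, 3 were off a constant between tables.

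All 18 chemokine receptors held their values between tables. Against Control 2 were called higher and 1 lower in BMN, 1 and 1 in PAZA, 1 and 3 in BMN/PAZA low dose, and 0 and 2 in BMN/PAZA high dose, with medians of 0.06, 0.10, -0.05 and -0.10, beside 3.13% to 4.57% of all symbols called higher and 2.21% to 4.84% lower. CCR2, the receptor of CCL2 and CCL7 on monocytes, was 85.5 in BMN and 31.2 to 46.0 in the other libraries, while CCL2 was lowest in BMN. The summed value of 4 monocyte markers was also highest in BMN, at 60.9 against 23.1 to 29.4 in the others. CXCR6, the receptor of CXCL16, was 2.34 in Control, listed at 0 in BMN and 0.89 to 1.21 in the rest. CCR7, which guides dendritic cells and T cells to lymph nodes, was listed at 0 in Control and was 0.57 to 2.16 in the treated libraries, and the scavenger ACKR4 was at most 2.73.

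Further receptors of the 10 chemokines were chosen for description after their values were seen. CXCR3, the receptor of CXCL9 and CXCL10, was 0.13 to 1.42 in all libraries. CXCR2, which binds CXCL1 and CXCL2, was 2.45 to 5.00. CXCR4, the receptor of CXCL12, was 13.3 in BMN/PAZA high dose and 5.72 to 11.3 in the others.

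**Figure D5:**
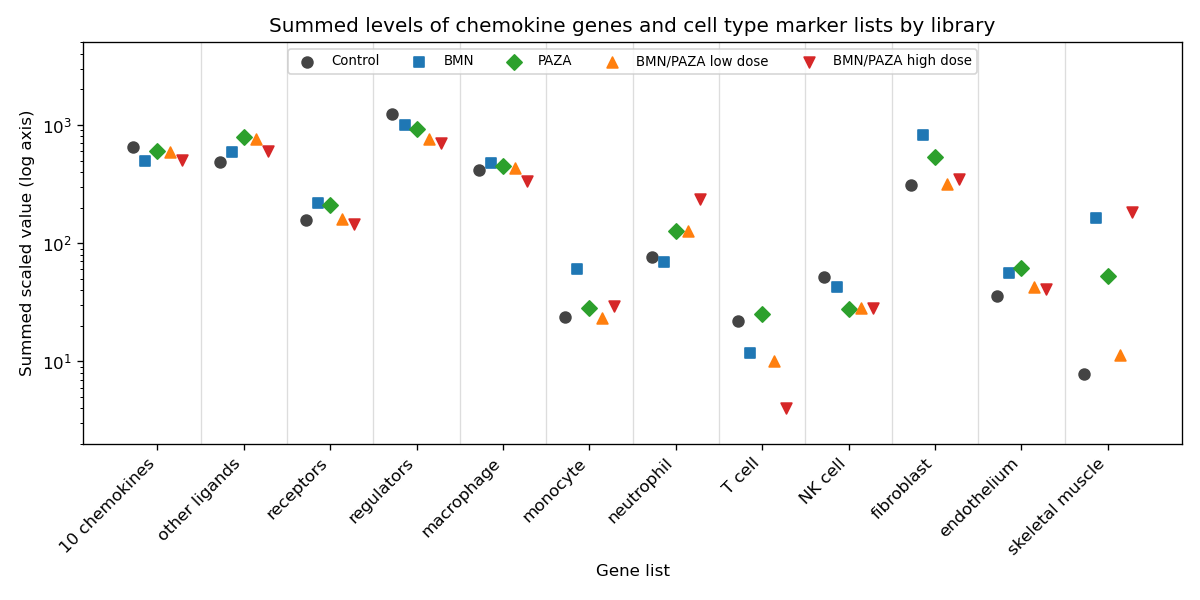
Summed scaled values (log axis) of the 10 chemokines, of 3 lists of related genes and of 8 lists of cell type markers, with 1 point per library. The plotted sums of the 10 chemokines lie between 500.0 and 652, with the low dose point at 589 (1059 with the values of the table with BMN), and those of skeletal muscle markers run from 7.88 to 184.

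Inducers and regulators of chemokine genes, a list of cytokines, transcription factors and the NF-kappa B inhibitors NFKBIA and TNFAIP3, had, with the levels used here, the highest sum in Control, 1237, and the lowest in BMN/PAZA high dose, 709. Of 22 such genes, 0 were called higher and 1 lower in BMN, 2 and 2 in PAZA, 0 and 3 in BMN/PAZA low dose, and 1 and 3 in BMN/PAZA high dose, and the medians were -0.11, -0.30, -0.26 and -0.53, beside the same shares of all symbols, 3.13% to 4.57% higher and 2.21% to 4.84% lower. With the low dose values of the table with PAZA 2 were called higher and 0 lower in BMN/PAZA low dose, and with those of the table with BMN 5 and 0, at medians of -0.02 and 0.44. IRF1, a factor of the interferon gamma response, had scaled values of 198 in Control, 94.6 in BMN, 79.1 in PAZA, 81.6 in BMN/PAZA low dose and 85.1 in BMN/PAZA high dose. It was highest in Control, as was CXCL9. IRF3, the factor downstream of cytosolic DNA sensing, was 8.82 in Control, 8.35 in BMN and 17.8 to 20.7 in the others. IL6 was 0.52 in Control and 1.05 to 3.25 in the treated libraries. All 3 of these genes, and 14 of the 22, were off a constant between tables, so their values depend on the table as those of CXCL9 do.

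Proteins that cleave or present chemokines included DPP4, a peptidase that inactivates CXCL9, CXCL10 and CXCL12. Its scaled values were 16.02 in Control, 13.0 in BMN, 10.5 in PAZA, 4.87 in BMN/PAZA low dose and 4.14 in BMN/PAZA high dose, so that both formulations were past 2-fold lower than Control. MMP12, a macrophage metalloproteinase that cleaves chemokines, was 75.8 in BMN and 160 to 317 in the other libraries. MMP2, which cleaves CXCL12, was 20.1 in BMN and 6.95 to 10.1 elsewhere, and EXT1, which builds heparan sulfate, was 20.2 to 30.7. Over the 11 genes, 1 was called higher and 1 lower in BMN, 0 and 0 in PAZA, 0 and 1 in BMN/PAZA low dose, and 0 and 1 in BMN/PAZA high dose, with medians of -0.22, -0.22, -0.12 and -0.32, beside 3.13% to 4.57% of all symbols called higher and 2.21% to 4.84% lower. All 11 held their values between tables.

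The genes with the most similar profiles over the 5 libraries were found by the Euclidean distance between centred log2 profiles, among 8270 candidates with a mean scaled value of at least 5. CXCL9 was nearest to IIGP1, an interferon-inducible GTPase, at a distance of 0.681, and to INPP1. CCL5 was nearest to MX1, an interferon-induced antiviral protein, at 0.677, but MX1 was off a constant between tables, and next to the pseudogene RPS24-PS3. CXCL12 was nearest to SLFN1 and to LUM, a matrix proteoglycan of fibroblasts, at 0.252 and 0.308. CXCL10 was nearest to FADS3 and ATG4B, CXCL2 to MT-CO3 and MICAL1, and CCL8 to UBXN8 and KLHL24. CCL2, CCL7, CXCL1 and CXCL16, whose profiles are flatter, had nearest genes at 0.046 to 0.086, which were SCAF8, RNF121, HEATR5B and ETV4. With 5 points per profile such likeness is a description only.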

How the data were processed

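RNA-seq of 5 groups with 1 library each was analysed. The submitters' processing notes name HISAT2, StringTie and the build GRCm38, without versions. The authors deposited 5 tables of 2 groups each, whose single value per gene and group, made by the tools named in the submitters' notes, was taken to be FPKM, since the files state no unit. How reads shared by related genes such as CCL2, CCL7 and CCL8 were assigned is not given in the sources used here. No counts are given, so the depth is unknown and no counting interval was computed.

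For repeated symbols the row with the highest mean was used. Columns were scaled to 1000000 over 13979 shared symbols, and 3 abundant RNAs (MT-RNR2, MT-RNR1, RN7SK) took 29.4 to 38.1% of each. Fold changes used a pseudocount of 1 and a call at 2-fold. For a library found in several tables, the median ratio of its values gave the constant, with a tolerance of 0.5%, and the commonest ratio of low values in a table gave the relative worth of 1 fragment. The samples were grouped by their titles. Fold changes are on the log2(scaled value + 1) scale, which understates differences of low genes. Levels of libraries from different tables were set across tables by this scaling alone.

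The chemokines and all lists were chosen with earlier results of these data known. Named genes were the 10 chemokines, from each related list up to 4 genes with the largest absolute log2 fold change against Control and a scaled value of at least 1 in a library, the 2 nearest profiles of each chemokine, and 10 defining markers. Some genes that this rule or the text would name are not reported here. Lists held 25 other ligands, 23 receptors, 24 regulators and 11 processing genes, of which 20, 18, 22 and 11 were among the shared symbols. Marker sums not given with the results were 188 to 283 for leukocytes, 334 to 481 for macrophages, 4.17 to 6.39 for dendritic cells, 0 to 2.21 for B cells, 35.9 to 61.5 for endothelium and 116 to 175 for epithelium and lung. Gene positions came from GENCODE for GRCm38. Alternatives were other scalings, a pseudocount of 0.1, a filter on low values, other source tables, deposited columns without scaling and summed repeats. The steps were checked on simulated data. Python 3.11.15, numpy 2.4.6, pandas 2.3.3 and matplotlib 3.10.9 were used.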

Additional observations from a re-analysis of the deposited data

How the results depend on the processing

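No paired analysis was possible because each group has 1 library. Counts of called chemokines moved by over 1.5 times in 13 of 74 recomputed counts, and 41 of 740 single values changed sign, 12 of them with a call in either setting. These totals include settings that could change little. The filter on low values removed no chemokine, as the lowest level was 1.37. It and the summed repeats, at 80 values each, changed no call. Of the counts, BMN/PAZA low dose against BMN (1 in the main analysis) became 2 with median-ratio scaling, 2 without the 3 abundant RNAs, 2 with low dose values of the table with PAZA, 5 with those of the table with BMN and 6 as deposited. BMN/PAZA low dose against BMN/PAZA high dose (0) became 1 with a pseudocount of 0.1, 2 and 4 with low dose values of the tables with PAZA and with BMN, and 8 as deposited. BMN/PAZA low dose against PAZA (0 higher, 4 lower) became 0 and 2 with the values of the table with PAZA, 2 and 1 with those of the table with BMN and 1 and 2 as deposited, and BMN/PAZA low dose against Control (1) became 2 with those of the table with BMN. BMN/PAZA high dose against BMN (0 higher, 1 lower) became 1 and 0 with median-ratio scaling and 1 and 1 (2 in all) without the 3 RNAs, and PAZA against Control (2) became 1 with CCL5 divided by 1.5. The last setting and the one without the 3 RNAs were chosen after seeing the data, as were the list counts with other source tables and exchanging the values back in the table that pairs PAZA with the low dose, which gave 4.

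Among these 12, the log2 fold changes of CXCL9 were 0.056 (PAZA value of the table with the low dose), 0.62 (low dose value of that table) and 2.28 (as deposited) against PAZA, 1.64 against BMN and 2.06 against the high dose with the low dose value of the table with PAZA, and 1.29 against the high dose as deposited. For CXCL10 they were 1.21 against BMN, 0.65 against PAZA and 1.35 against the high dose with the low dose value of the table with BMN, and 1.36 against BMN and 1.24 against the high dose as deposited. CXCL16 was 1.51 against the high dose as deposited. The construction of the settings shows the source: each of them took values that stand off a constant or the column that carries the factor of 3.6. Of the 29 sign changes without a call, the largest values were 0.93 for CXCL2 and 0.81 for CXCL12 against the high dose as deposited, and 0.92 for CXCL10, 0.91 for CCL5 and 0.89 for CCL2 in the low dose against Control with the value of the table with BMN. Scaling alone flipped the sign of 10 of 80 chemokine values with median-ratio scaling, 3 over all rows and 4 without the 3 RNAs, none of them past 2-fold. CXCL9 was at least 2-fold below Control in BMN and in BMN/PAZA high dose under every setting run for these comparisons. Those settings changed the scaling, the pseudocount, the filter and the repeated symbols, but no source table. Control occurs only in the table with PAZA, so its value could not be replaced by another. With no counts, the depth limits of low genes such as CCL5 could not be given.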
